A study of Homo sapiens with 12 samples.

Results

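Aminoacyl-tRNA synthetases are the enzymes that join each amino acid to its tRNA, the step that supplies every ribosome. Human cells keep separate sets for the cytosol and for the mitochondrial matrix, both encoded in the nucleus, and the lysine and glycine enzymes KARS1 and GARS1 serve both compartments from a single gene. Many cytosolic synthetase genes are known targets of ATF4, the transcription factor of the integrated stress response, which raises amino acid synthesis, import and tRNA charging when amino acids run short. In the results that follow, 35 synthetase genes were matched by gene identifier to their symbols among the 60609 genes listed for each library, 19 of them cytosolic and 16 mitochondrial, and were compared between K562 cells treated with FT671 and with DMSO.

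K562 is a human erythroleukemia line carrying BCR-ABL1, and FT671 is an inhibitor of the deubiquitinase USP7. The DMSO group (vehicle control) and the FT671 group (10 µM, 48 h) each held 3 libraries of ribosome-depleted total RNA, which contained 5320245 to 14250500 counted reads with DMSO and 4555220 to 11437804 with FT671. Per the paper, the 3 libraries of a group came from independent treatments of the cells, so p-values measure the spread between experiments on 1 cell line. In bulk RNA, fewer cells that express a gene and less RNA per cell cannot be told apart.

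USP7 mRNA was at 107 to 131 CPM (counts scaled to library size, after a correction for library composition) with DMSO and 29.3 to 35.8 CPM with FT671. The 6 erythroid markers GATA1, KLF1, HBG1, HBG2, HBE1 and TFRC summed to 1056 to 1097 CPM with DMSO and 900.3 to 937 CPM with FT671, with HBE1 near the detection limit, while CD3E, CD14 and MPO together reached at most 0.555 CPM in any library. The markers moved in both directions: HBG1 (1.41 ± 0.09) and HBG2 (1.22 ± 0.14) rose on the log2 scale, KLF1 (-0.82 ± 0.10), TFRC (-0.40 ± 0.09) and GATA1 (-0.29 ± 0.09) fell, and HBE1 was not tested. The part of these changes in the results below was not tested. DMSO replicate 3 stood apart from the other DMSO libraries, since a chi-square test of counts over genes gave a statistic, divided by its degrees of freedom, of 7.54 against replicate 1 and 8.73 against replicate 2, where replicates 1 and 2 gave 2.94. Results that change without it are given beside their values.

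Promoter sequences are shown because ATF4 binds DNA with C/EBP partners at a composite element whose common form reads TGATGCAA. RefSeq (GRCh38.p14) windows of 300 bases, 250 before and 50 after the start site, were available for 30 of the 35 members. TGATGCAA was searched on both strands, and a gene was counted when any of its windows matched. The element lay in the windows of 6 of 10 cytosolic genes known as ATF4 targets. It lay in those of 0 of 6 other cytosolic genes and of 0 of 14 mitochondrial genes. Known targets may have been named in part because they hold this element. The list was also drawn up with earlier results of these data known. These counts are therefore no independent support for the list. Of all 35116 windows, each counted singly, 0.866% matched, so this share and the gene counts are in unlike units. The matches are printed in gene orientation with the element in capitals, which reads TTGCATCA where it lies on the opposite strand.
AARS1, minus strand, chr16:70289675-70289704: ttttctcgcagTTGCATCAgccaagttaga
CARS1, minus strand, chr11:3057407-3057436: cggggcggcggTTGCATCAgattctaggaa
IARS1, minus strand, chr9:92293692-92293721: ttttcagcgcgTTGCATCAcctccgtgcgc
MARS1, plus strand, chr12:57488053-57488082: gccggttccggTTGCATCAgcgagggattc
NARS1, minus strand, chr18:57621804-57621833: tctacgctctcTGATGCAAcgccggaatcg
TARS1, plus strand, chr5:33440956-33440985: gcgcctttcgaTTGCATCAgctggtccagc

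The element began within 15 bases of the start site in CARS1, IARS1, MARS1, NARS1 and TARS1, and 187 bases before it in AARS1. A looser form with any base at the sixth position, TGATGNAA, added GARS1 and the mitochondrial YARS2 and was present in 3.62% of all windows. A form with a further T, TGATGNAAT, matched GARS1 and TARS1 and 0.991% of windows. The E-box CACGTG was found in IARS1, CARS2, EARS2 and MARS2 and in 7.26% of windows. The search was made after the fold changes below had been seen. A match is a run of letters, not a measured binding site.

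FT671 moved the cytosolic synthetase mRNAs in both directions. By edgeR's quasi-likelihood test over all 13895 genes tested, with Benjamini-Hochberg adjustment and a threshold of 0.05, 6 of the 19 cytosolic genes were higher with FT671, 8 were lower and 5 did not pass. Among all genes, 23.6% were higher and 26.5% lower by the same rule, and 50.1% passed in either direction. Across the cytosolic members the log2 fold change had a median of -0.13, beside -0.01 across all genes tested. Every FT671 library lay above every DMSO library for 7 cytosolic genes and below for 10, against 26.8% and 30.3% of all genes, or 57.1% in either direction.

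The cytosolic set was split by a list of known ATF4 targets, drawn up with earlier results of these data known. Of the 12 ATF4 targets, 8 fell, 0 rose and 4 did not pass, with a median log2 fold change of -0.33, where 26.5% of all genes fell. Of the other 7, 6 rose, 0 fell and 1 did not pass, with a median of 0.30, where 23.6% of all genes rose. The 2 counts of 0 were also 0 at an unadjusted p under 0.05 and by the DESeq2 Wald test, but TARS1, an ATF4 target, was called higher when DMSO replicate 3 was left out (log2 fold change 0.20, adjusted p = 0.00475).

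**Figure D1:**
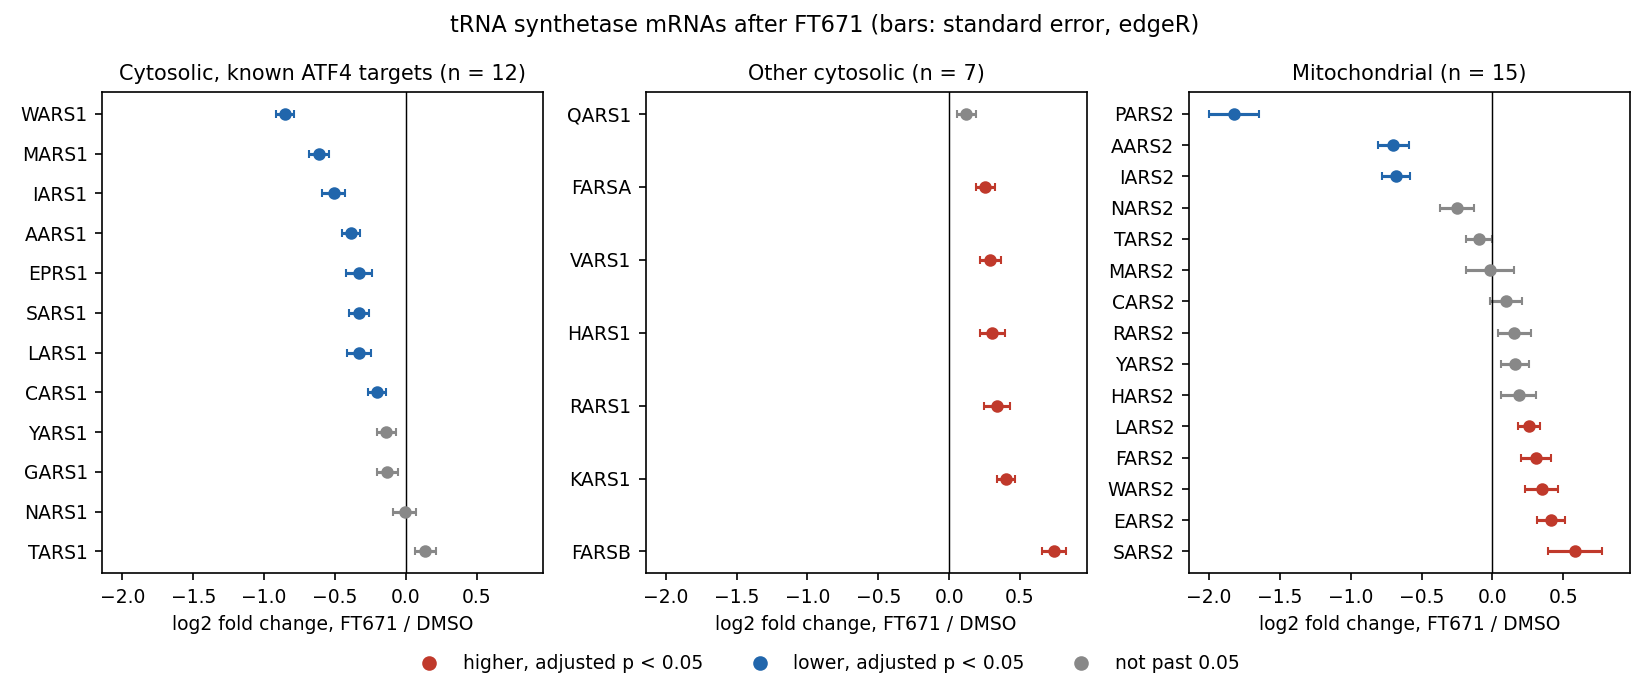
Log2 fold change of each synthetase mRNA, FT671 over DMSO, with its standard error from edgeR (x axis), for the 12 cytosolic ATF4 targets, the other 7 cytosolic genes and the 15 mitochondrial genes tested. Red points were higher and blue points lower at an adjusted p under 0.05, and grey points did not pass. ATF4 targets run from -0.85 to 0.14, the other cytosolic genes from 0.12 to 0.74 and the mitochondrial genes from -1.82 to 0.58.

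WARS1, the tryptophan enzyme, which interferon is also known to induce, fell furthest among the cytosolic members. It was at 1142, 1205 and 1198 CPM with DMSO and at 649.8, 651 and 659.6 CPM with FT671, which is 55.3% of the DMSO level (log2 fold change -0.85 ± 0.06 SE, adjusted p = 2.11e-07). All 3 FT671 libraries lay within 10 CPM of each other and far below the lowest DMSO library. WARS1 lies at chr14:100333790-100376805 (GRCh38) and shares 385 exon bases with the antisense lncRNA ENSG00000258666. The raw counts of that lncRNA were 1088, 772 and 409 with DMSO and 181, 218 and 460 with FT671. They are not scaled to library size, which differed between libraries, so they cannot be set beside the CPM of WARS1. How the counting treated strand is not given in the sources used here, so reads of the pair may not be fully separated.

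MARS1, the methionine enzyme, which charges initiator and elongator tRNA, and IARS1, the isoleucine enzyme, came next. MARS1 was at 584, 584 and 545 CPM with DMSO and 406, 362 and 354 CPM with FT671 (-0.61 ± 0.07, adjusted p = 1.32e-05). IARS1 was at 750.2, 695 and 844 CPM with DMSO and 499.7, 547 and 559 CPM with FT671 (-0.51 ± 0.08, adjusted p = 0.000153). Neither gene's groups overlapped, and both promoters hold the element printed above. MARS1 shares 355 exon bases with DDIT3, a stress response gene on the opposite strand, which was at 83.9, 94.5 and 87.4 CPM with DMSO and 80.2, 83.5 and 81.8 CPM with FT671 and did not pass.

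AARS1, SARS1, EPRS1 and LARS1 fell by like amounts. AARS1, the alanine enzyme, went from 826, 853 and 833 CPM to 662, 638 and 624 CPM (-0.38 ± 0.06, adjusted p = 0.000233). SARS1, the serine enzyme, went from 958, 1004 and 900.4 CPM to 765, 734 and 776 CPM (-0.33 ± 0.07, adjusted p = 0.00114). In both genes the FT671 libraries sat in a narrow band below the DMSO range. EPRS1, which carries the glutamate and proline enzymes in 1 chain, was at 641, 566 and 742 CPM with DMSO and 478, 529 and 539 CPM with FT671 (-0.33 ± 0.09, adjusted p = 0.00816). LARS1, the leucine enzyme and a leucine sensor of mTORC1, was at 425, 400.2 and 488 CPM with DMSO and 324, 359 and 360.4 CPM with FT671 (-0.33 ± 0.08, adjusted p = 0.00442). DMSO replicate 3 was the highest library for EPRS1, LARS1 and IARS1, and without it their log2 fold changes were -0.23, -0.25 and -0.44, all still called lower.

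CARS1, the cysteine enzyme, had the smallest change called, with 186, 190.3 and 188 CPM in DMSO and 163, 167 and 161 CPM in FT671 (-0.20 ± 0.07, adjusted p = 0.0205). Its groups did not overlap, but the call was lost when any library other than DMSO replicate 3 was left out, with adjusted p of 0.0519 without DMSO replicate 1, 0.0600 without DMSO replicate 2, and 0.0608, 0.0650 and 0.0850 without FT671 replicate 1, 2 and 3. It was also lost after a correction for exon length (log2 fold change -0.10).

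The 4 ATF4 targets that did not pass were GARS1, NARS1, TARS1 and YARS1. YARS1 (tyrosine) was at 918 to 969 CPM with DMSO and 823 to 896 CPM with FT671 (-0.14 ± 0.07, adjusted p = 0.0985), and was called lower without DMSO replicate 3 (-0.16, adjusted p = 0.0198). GARS1 (glycine) was at 793 to 869 CPM and 700.5 to 779.7 CPM (-0.13 ± 0.07, adjusted p = 0.145). The FT671 libraries of both genes lay below their DMSO libraries without the difference passing, and they share 396 (YARS1, with S100PBP) and 312 (GARS1, with GARS1-DT) exon bases with genes on the opposite strand. NARS1 (asparagine) was at 265 to 319 CPM and 271 to 298 CPM (-0.01 ± 0.08), and TARS1 (threonine) at 529 to 625 CPM and 604 to 645 CPM (0.14 ± 0.08), with overlapping groups in both. Of the 6 genes with TGATGCAA in their windows, AARS1, CARS1, IARS1 and MARS1 fell and NARS1 and TARS1 did not pass, and WARS1, SARS1 and EPRS1 fell with no match in theirs.

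Among the other cytosolic genes, FARSB rose furthest. FARSA and FARSB encode the alpha and the beta subunit of the phenylalanine enzyme, the only cytosolic synthetase of this list built from different chains. FARSB was at 69.9, 62.7 and 76.5 CPM with DMSO and 113, 115 and 119 CPM with FT671 (0.74 ± 0.09, adjusted p = 9.72e-06). FARSA was at 235, 234 and 215 CPM with DMSO and 271, 267 and 279 CPM with FT671 (0.26 ± 0.07, adjusted p = 0.00691). Both subunits rose with no overlap of groups, and the FARSB to FARSA ratio of CPM was 0.298, 0.268 and 0.356 with DMSO and 0.416, 0.432 and 0.428 with FT671. The ratio was higher in each FT671 library than in any DMSO library, a pattern for which 3 against 3 libraries cannot give an exact permutation p below 0.1.

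KARS1, the lysine enzyme, rose from 433, 454 and 448 CPM to 591, 588 and 581 CPM (0.40 ± 0.06, adjusted p = 0.000154). VARS1, the valine enzyme, rose from 938, 905 and 808 CPM to 1144, 1061 and 1039 CPM (0.29 ± 0.07, adjusted p = 0.00539). KARS1 and VARS1 had no overlap between groups, and KARS1 shares 176 exon bases with TERF2IP on the opposite strand. RARS1, the arginine enzyme, was at 68.6, 68.7 and 76.5 CPM with DMSO and 80.4, 98.1 and 89.9 CPM with FT671 (0.34 ± 0.09, adjusted p = 0.00677). HARS1, the histidine enzyme, was at 73.1, 75.0 and 73.9 CPM with DMSO and 102, 91.8 and 82.0 CPM with FT671 (0.30 ± 0.09, adjusted p = 0.0114). The groups of both were apart, but the RARS1 call was lost without FT671 replicate 2 (adjusted p = 0.0572) and the HARS1 call without FT671 replicate 1 (adjusted p = 0.0609). HARS1 shares 1090 exon bases with WDR55 on the opposite strand and 176 with DND1 on its own, so its level depends on how such reads were assigned. QARS1, the glutamine enzyme, was at 348 to 374 CPM with DMSO and 385 to 415 CPM with FT671 and did not pass (0.12 ± 0.07, adjusted p = 0.154).

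Summed over genes, the ATF4 targets gave 8073, 8054 and 8470.1 CPM with DMSO and 6347, 6503 and 6652 CPM with FT671, a mean change of -20.7%. The other cytosolic genes summed to 2191, 2171 and 2045 CPM with DMSO and 2716, 2612 and 2576 CPM with FT671, a mean change of 23.4%. Neither sum overlapped between groups. The ratio of the first sum to the second was 3.69, 3.71 and 4.14 with DMSO and 2.34, 2.49 and 2.58 with FT671. All 19 cytosolic genes together went from 10335 ± 158 CPM (SD, n = 3) to 9135 ± 84.3 CPM (SD, n = 3), a change of -11.6%.

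Divided by exon length, to compare levels between genes, SARS1 ranked first in both groups, at 248 CPM per kb with DMSO and 197 CPM per kb with FT671. WARS1 went from rank 2 (186 CPM per kb) to rank 6 (103 CPM per kb), VARS1 from rank 3 (150.3 CPM per kb) to rank 2 (184 CPM per kb) and KARS1 from rank 6 to rank 4. FARSB went from rank 21 to rank 16 of the 35. Exon length here is the union over all annotated transcripts, so genes with many long isoforms are placed too low.

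The multisynthetase complex binds EPRS1, IARS1, KARS1, LARS1, MARS1, QARS1 and RARS1 around the scaffold proteins AIMP1, AIMP2 and EEF1E1. Of the 7 enzymes, 2 rose (KARS1 and RARS1), 4 fell (EPRS1, IARS1, LARS1 and MARS1) and QARS1 did not pass. Of the 12 cytosolic genes outside the complex, 4 rose and 4 fell, and of all genes tested 23.6% rose and 26.5% fell. AIMP1 rose from 38.3, 32.6 and 42.5 CPM to 51.5, 48.5 and 55.7 CPM (0.48 ± 0.11, adjusted p = 0.00271), and AIMP2 and EEF1E1 did not pass (0.08 ± 0.08 and 0.35 ± 0.20).

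Of 22 other genes of the integrated stress response, 4 rose, a share near the 23.6% of all genes, 11 fell, beside 26.5% of all genes, and 7 did not pass. The mRNA of ATF4 itself, a factor set largely by translation, rose from 304, 325 and 301 CPM to 395, 419 and 395 CPM (0.38 ± 0.07, adjusted p = 0.000396). ATF3 (1.62 ± 0.10), the amino acid transporter chain SLC3A2 (0.87 ± 0.07) and the tRNA exporter XPOT (0.48 ± 0.10) rose as well. Those that fell included the pseudokinase TRIB3 (-1.71 ± 0.10), SLC7A5, the transporter partner of SLC3A2 (-1.05 ± 0.08), the ATF4 partner CEBPB (-1.07 ± 0.11) and PHGDH, which opens serine synthesis (-0.85 ± 0.07). ASNS (0.17 ± 0.18), DDIT3 (-0.11 ± 0.08) and PSAT1 (-0.05 ± 0.07) were among those that did not pass. ATF4 protein was not measured.

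The mitochondrial synthetases were mostly at lower levels than the cytosolic ones. Per length of exon, mean DMSO levels ran from 1.45 CPM per kb for RARS2 to 25.9 CPM per kb for IARS2 among the 15 tested, and from 5.23 CPM per kb for HARS1 to 248 CPM per kb for SARS1 in the cytosolic set. Of the 15, 5 rose, 3 fell and 7 did not pass, with a median log2 fold change of 0.15. The 8 of 15 called are a share near the 50.1% of all genes that passed. Their summed level, 536 ± 12.5 CPM with DMSO and 521 ± 2.78 CPM with FT671 (SD, n = 3), changed by -2.85%. The sum in each FT671 library lay below that in each DMSO library.

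PARS2, the mitochondrial proline enzyme, fell more than any other member. It was at 14.7, 13.8 and 11.3 CPM with DMSO and 3.78, 3.79 and 3.84 CPM with FT671, 28.3% of the DMSO level (-1.82 ± 0.18, adjusted p = 2.18e-06). These are counts of 212, 151 and 61 against 17, 21 and 43, few but far apart once depth is considered. PARS2 lies at chr1:54756898-54764523 (GRCh38), and no annotated gene overlaps it.

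IARS2 and AARS2, the mitochondrial isoleucine and alanine enzymes, also fell. IARS2 was at 111, 93.3 and 116 CPM with DMSO and 62.2, 72.5 and 64.8 CPM with FT671 (-0.68 ± 0.10, adjusted p = 6.16e-05). AARS2 was at 37.0, 34.9 and 31.1 CPM with DMSO and 22.9, 20.03 and 21.3 CPM with FT671 (-0.70 ± 0.11, adjusted p = 0.000157). None of these 3 genes overlapped between groups, and each was called lower whichever library was left out.

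EARS2, the mitochondrial glutamate enzyme, rose and kept its call whichever library was left out. It was at 29.7, 32.3 and 29.9 CPM with DMSO and 40.2, 43.8 and 38.9 CPM with FT671 (0.41 ± 0.10, adjusted p = 0.00362). It shares 203 exon bases with GGA2 on the same strand. The other 4 calls each depended on single libraries. SARS2 (serine) was at 7.89, 8.24 and 5.55 CPM with DMSO and 14.2, 9.38 and 10.6 CPM with FT671 (0.58 ± 0.19, adjusted p = 0.0197), and lost the call without FT671 replicate 1 (adjusted p = 0.0839). LARS2 (leucine) was at 67.9, 73.5 and 70.1 CPM and 86.8, 83.0 and 83.7 CPM (0.26 ± 0.08, adjusted p = 0.0130), and lost it without DMSO replicate 1 (adjusted p = 0.0718). For these genes the groups were apart but the margin was thin. FARS2 (phenylalanine) was at 28.7 to 32.0 CPM and 34.6 to 41.5 CPM (0.31 ± 0.11, adjusted p = 0.0263), with adjusted p of 0.0620 without DMSO replicate 2 and 0.172 without FT671 replicate 3. WARS2 (tryptophan) was at 32.5 to 39.2 CPM and 37.1 to 47.9 CPM (0.35 ± 0.12, adjusted p = 0.0238), with overlapping groups. Its adjusted p was 0.109 without DMSO replicate 1, 0.0677 without DMSO replicate 2, 0.0885 without FT671 replicate 2 and 0.140 without FT671 replicate 3.

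CARS2, HARS2, MARS2, NARS2, RARS2, TARS2 and YARS2 did not pass, with log2 fold changes from -0.25 ± 0.12 for NARS2 to 0.19 ± 0.12 for HARS2. TARS2 (threonine) was at 76.6, 72.6 and 61.4 CPM with DMSO and 68.2, 66.4 and 64.6 CPM with FT671, and was called lower without DMSO replicate 3 (-0.18, adjusted p = 0.0419). VARS2 was not tested, with counts of 7, 4 and 0 with DMSO and 0, 1 and 5 with FT671. It shares 4073 exon bases on the same strand with the lncRNA ENSG00000288473, which had at most 1 count in any library, so its level is not established by these files. SARS2 shares 1492 exon bases on the same strand with ENSG00000269547, at 0 counts in all 6 libraries, and its low level carries the same doubt.

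At a stricter threshold of 1e-05, which 1.79% of all genes passed as higher, 4.13% as lower and 5.92% in either direction, FARSB was the only member higher, and WARS1 and PARS2 were the only members lower.

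For 15 amino acid pairs, the mitochondrial and the cytosolic enzyme could be compared within each library. For 7 pairs the log2 ratio of mitochondrial to cytosolic CPM was higher in every FT671 library than in every DMSO library. It was lower for 4 and overlapping for 4, and no pair could reach an exact permutation p below 0.1. Among single genes tested, 57.1% had groups that did not overlap, and the share among pairs of genes was not computed. WARS2 over WARS1 went from -5.14, -5.16 and -4.93 to -4.13, -3.81 and -3.78, a difference of 1.17. SARS2 over SARS1 differed by 0.99 and EARS2 over EPRS1 by 0.74. In these 3 pairs, and in the leucine pair (a difference of 0.59), a cytosolic ATF4 target fell while its mitochondrial counterpart rose. Of these mitochondrial rises, only the EARS2 call was kept whichever library was left out, and the WARS2 groups overlapped. PARS2 over EPRS1 went the other way, from -5.45, -5.36 and -6.04 to -6.99, -7.13 and -7.13. The alanine and isoleucine pairs fell together in both compartments, by -0.38 and -0.70 for AARS1 and AARS2 and by -0.51 and -0.68 for IARS1 and IARS2.

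Of 14 partners of the synthetases in tRNA charging and maturation, 10 rose, 1 fell and 3 did not pass, beside 23.6% and 26.5% of all genes. By the DESeq2 Wald test 8 were higher and 0 lower. GATB, a subunit of the amidotransferase that makes mitochondrial glutaminyl-tRNA from the product of EARS2, rose from 17.9, 18.2 and 14.97 CPM to 38.4, 31.0 and 33.8 CPM (0.99 ± 0.12, adjusted p = 1.50e-05). Its partner GATC rose by less (0.25 ± 0.08), and the catalytic subunit QRSL1 did not pass (0.21 ± 0.10). ELAC2, which trims tRNA 3′ ends, rose (0.59 ± 0.08), as did TRNT1, which adds the CCA end (0.66 ± 0.13), and the D-aminoacyl-tRNA deacylase DTD1 fell (-0.30 ± 0.11, adjusted p = 0.0358), a call that the DESeq2 Wald test did not give (adjusted p = 0.123).

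Of 10 mitochondrial translation factors, 8 rose, among them the elongation factors GFM1 (0.73 ± 0.08) and TUFM (0.35 ± 0.07), and the release-like factor MTRFR fell (-0.82 ± 0.14). Of the ribosomal protein genes tested, 62 of 78 cytosolic and 38 of 77 mitochondrial ones were higher, with medians of 0.41 and 0.30, and 1 and 4 were lower. Of the 13 mRNAs encoded by mitochondrial DNA, which the mitochondrial synthetases serve, 12 fell and MT-CO1 rose (0.55 ± 0.08). All counts in this paragraph stand beside 23.6% higher and 26.5% lower among all genes tested.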

How the data were processed

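RNA from 3 DMSO and 3 FT671 libraries of K562 cells was analysed; histone mark ChIP samples of the series were not analysed here. Per the labels, ribosomal RNA was depleted before library preparation (KAPA RNA HyperPrep, riboErase). The submitters' processing notes name STAR, DESeq2 and hg38; versions and the strand setting are not given in the sources used here. The deposited values are raw gene counts, 1 file per library, and were used as the authors deposited them. Of 60609 gene identifiers, 60295 matched GENCODE release 44, the source of symbols, gene positions and exon lengths.

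Counts were filtered with filterByExpr, scaled by TMM and tested with edgeR 4.0.16 (R 4.3.3, limma 3.58.1; glmQLFit, glmQLFTest), with no covariate and with Benjamini-Hochberg adjustment over all 13895 genes tested. DESeq2 1.42.0, the tool of the study, was run as an alternative. The SE is the size of the log2 fold change over the square root of F. CPM uses TMM-scaled library sizes. On simulated counts for this comparison, 13695 genes were tested. The test recovered 46.9% of 98 genes changed by 0.5 on the log2 scale and 91.9% of 99 changed by 1, with 6 false calls. In the data 50.1% of genes passed, a far larger share than was changed in the simulation, so recovery in the data may differ. A member that moved by under 0.5 can be missed.

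The 35 members and all lists were chosen with earlier results of these data known. All members are named; of the other lists, the text names genes past the threshold and 6 that were not, picked with their values in view. The 4 promoter motif forms were searched after the fold changes had been seen. The 39 RefSeq promoter windows of members were equal to hg38 in gene orientation. Alternatives were another scaling (DESeq2 size factors, library totals), other filters, protein-coding genes alone, loess corrections (span 0.3) for exon length and GC content, the replicate number as a block, and each library left out. Whether same-numbered libraries share an experiment is not settled by the data, and the main fit left them unpaired. Some genes of the marker lists are not reported here.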

Additional observations from a re-analysis of the deposited data

How the results depend on the processing

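Of 578 comparisons of a member's log2 fold change with an alternative, 531 kept direction and call, 21 lost the call, 13 gained one and 0 were called in the opposite direction. In the other 13, all of NARS1 or MARS2, the sign changed with neither fit past the threshold, at values from 0.00062 to 0.08. At 1e-05, the cytosolic counts were 1 higher and 1 lower, the mitochondrial 0 and 1, the ATF4-target count lower was 1 and the other cytosolic count higher was 1. With no filter, 3 mitochondrial genes were called higher, FARS2 and LARS2 being lost (adjusted p = 0.0952 and 0.105), as was FARSA (0.0520); by DESeq2 FARS2 was lost (0.0715). Under the GC correction, with and without the block, 1 ATF4 target (TARS1) was higher. Both of these fits also called GARS1 and NARS2 lower and QARS1 higher. The GC correction with the block called YARS1 lower as well. Results for the ATF4 split were added to the alternatives after the data had been seen. Its medians moved to -0.36 and 0.27 with library totals, -0.37 and 0.26 with no filter, and -0.26 and 0.35 with the exon length correction. That correction took the cytosolic median to -0.032; the genes called lower had a median exon length of 8.53 kb and those called higher 4.97 kb. The cause of these shifts was not tested.

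With a library left out, 5 to 7 cytosolic genes were higher and 7 to 9 lower, and 3 to 5 mitochondrial genes were higher (3 without DMSO replicate 1, DMSO replicate 2 or FT671 replicate 3) and 3 to 4 lower. ATF4 targets gave 7 to 9 lower and 0 to 1 higher, and the others 5 to 6 higher and 0 lower. Medians ranged from -0.16 to -0.08 (cytosolic), 0.10 to 0.19 (mitochondrial), -0.35 to -0.24 (ATF4 targets) and 0.26 to 0.34 (others). In each fit without 1 library other than DMSO replicate 3, 19 of the 22 calls remained, but not always the same 19. CARS1, HARS1, RARS1, FARS2, LARS2, SARS2 and WARS2 each lost the call in at least 1 of these fits. All 22 remained without DMSO replicate 3, where 25 were called.

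Deviations from the group means correlated between same-numbered libraries at 0.115, -0.06 and 0.140, and DMSO replicate 2 correlated best with FT671 replicate 1 (0.125). These values do not settle whether same-numbered libraries came from the same experiment. With the replicate block, 3374 genes were higher and 3761 lower against 3276 and 3687 without it, the member counts stayed at 6 and 8 cytosolic and 5 and 3 mitochondrial, and the medians were -0.13 and 0.13. With the block and the exon length correction together, the cytosolic median was -0.030 and those of the ATF4 split were -0.26 and 0.35. A floor of 3 counts is 0.659 CPM in the shallowest library, and the lowest mean level of a tested member was 3.802 CPM (PARS2 with FT671).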

Other observations

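The synthetases fall into 2 unrelated catalytic folds, class I and class II. Of the 17 class I genes tested, 5 rose and 6 fell, and of the 16 class II genes 6 rose and 4 fell, beside 23.6% higher and 26.5% lower among all genes tested. Within the cytosolic set, class I had 2 higher and 5 lower of 9, and class II 4 higher and 2 lower of 9; the difference between classes was not tested. EPRS1 carries an enzyme of each class and was in neither.

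HARS1 and HARS2, the cytosolic and mitochondrial histidine genes, lie head to head and share 108 bases of exon on opposite strands. The HARS2 to HARS1 ratio of CPM was 0.339, 0.304 and 0.295 with DMSO and 0.276, 0.238 and 0.353 with FT671, so the groups overlapped.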
